A study of Mus musculus with 8 samples.

Results

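Cluster 1 is a group of nuclei from the embryonic mouse cortex. The marker genes given for it are those of upper-layer excitatory neurons, and in wildtype they stood higher there than in any other cluster. Its members are the nuclei that carry cluster number 1 in the tables of nuclei deposited for the 8 samples. They number 14604 of 67319 nuclei. All samples are from mouse embryos of strain C57BL/6J at age E15.5, and the tissue is the dorsal telencephalon, from which the cerebral cortex develops. There were 4 wildtype samples and 4 Pantr2 knockout (Pantr2-/-) samples, with no other allele or treatment named in the labels. Pantr2 is a long noncoding RNA gene. The labels do not say how the allele was made or which part of the gene it removes, nor whether a sample is 1 embryo or a pool, so the p-values below measure only the spread between these samples. Nuclei were isolated from frozen tissue and their RNA was counted with the 10x Genomics 3′ droplet method, version 2, in which each unique molecular identifier (UMI) marks 1 captured molecule. The counts of Pantr2 are not analysed here, so the genotype rests on the labels.

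Excitatory neurons of the cortex are born from progenitors in the dorsal telencephalon, deep-layer neurons before upper-layer neurons, and migrate outwards past the cells born earlier. Upper-layer neurons connect cortical areas with each other and across the corpus callosum, and they carry transcription factors such as Cux1, Cux2, Pou3f1 and Pou3f2. Deep-layer neurons project mostly to targets below the cortex and carry factors such as Bcl11b, Fezf2, Sox5 and Tbr1.

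The wildtype samples held 1189, 2028, 1748 and 2284 nuclei of cluster 1 (replicates 1 to 4), and the knockout samples 1051, 2770, 2005 and 1529. Their summed UMIs ran from 2683912 to 7776427 per sample. The median nucleus held 2245 to 2425 UMIs in the wildtype samples and 2288 to 2633 in the knockout samples, so depth per nucleus was similar in both. Any pair of libraries shared 8 to 30 cell barcodes, at most 0.371% of the smaller library. In a principal component analysis of the cluster 1 sums, the leading component held 38.3% of the variance. All wildtype samples lay on its negative side and all knockout samples on its positive side, so no library lay with the other genotype.

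The identity of the cluster is a description, since the authors grouped the nuclei by these genes. In wildtype, all 4 markers given for it stood highest in cluster 1 among the 7 clusters, in each of the 4 samples. Cux2, a homeobox factor of upper-layer neurons, stood at 763 ± 94.5 CPM (counts scaled to the total of the cluster in each sample; SD, n = 4) in cluster 1 and next highest in cluster 5, at 607 ± 113. Cux1, its relative, stood at 667 ± 62.8 CPM against 452 ± 12.9 CPM in cluster 4, its next highest cluster. Pou3f1, a POU factor, stood at 93.7 ± 8.11 CPM against 69.4 ± 9.77 CPM in cluster 5, a ratio of 1.35. Robo2, a receptor for Slit guidance cues, stood at 5419 ± 249 CPM against 3530 ± 279 CPM in cluster 5. The gap to the next cluster was modest for Cux2 and Pou3f1. Cluster 5 is thus the cluster nearest to cluster 1 in 3 of its 4 markers.

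**Figure D1:**
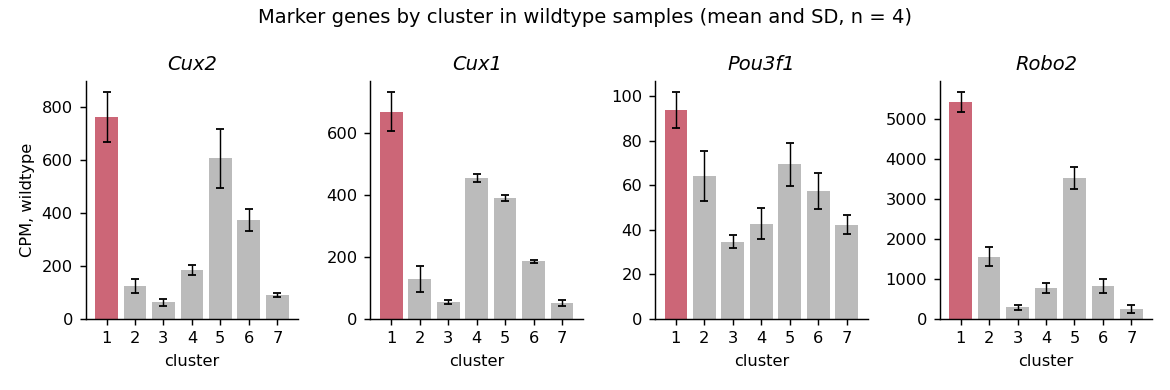
Bars give the mean level (CPM, y axis) of Cux2, Cux1, Pou3f1 and Robo2 in each of the 7 clusters (x axis) in wildtype, and error bars the SD over 4 samples. Cluster 1 (red) has the tallest bar in every panel, and cluster 5 is next for Cux2, Pou3f1 and Robo2.

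Of the 13 upper-layer genes in the gene table, 7 stood highest in cluster 1. Together they took 16099 CPM there, against 13517 in cluster 5, 6791 in cluster 2 and 2964 in cluster 3. None of the 14 deep-layer genes stood highest in cluster 1. Their summed level was 2943 CPM, against 9771 in cluster 2 and 17414 in cluster 3. The 14 cell cycle genes summed to 256 CPM in cluster 1 and to 1390.5 CPM in cluster 4, and the 11 apical progenitor genes to 850 and 2475 CPM. The 8 intermediate progenitor genes summed to 276 CPM, below clusters 4 (424) and 5 (722) and above the remaining clusters (185 to 258). One of them, Insm1, a zinc finger factor, stood highest in cluster 1 in all 4 samples, at 82.0 ± 14.5 CPM against 73.6 in cluster 5. Between 7.78% and 10.4% of the nuclei of cluster 1 in wildtype samples had a deposited cell cycle angle from 0.5 to 1.5 times pi, against 76.2% to 86.3% in cluster 4. With every angle outside the G1/G0 range counted, the share in cluster 1 was 24.1% to 28.7%.

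By its ratio to the highest other cluster, the leading gene was Frmd4a, which encodes a scaffold protein of cell polarity. It stood at 4760 ± 491 CPM, 2.83 times the level in cluster 6. Next came Hs6st2, a heparan sulfate sulfotransferase, at 967 ± 132 CPM and 2.51 times cluster 2. Bcl6, a transcriptional repressor that promotes neurogenesis, and Myt1l, a factor that silences other lineages in neurons, stood at 1.76 and 1.73 times cluster 2. Further genes among the 15 leading ones were Adamts2, Ppp2r1b, Dscam, Sik2, Gria2, Fbxo10, Igsf3, Gpm6a and Fn1. All 15 were highest in cluster 1 in each wildtype sample, which follows largely from how they were chosen.

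Between genotypes, 564 of 11664 genes tested differed in cluster 1, or 4.84%, by the quasi-likelihood test of edgeR with a threshold of 0.05 on the adjusted p. Of these, 296 (2.54% of genes tested) were higher and 268 (2.3%) lower in the knockout samples, and 138 changed by at least 1 on the log2 scale (53 higher, 85 lower). The samples of the genotypes did not overlap for 517 of the 564. Over all genes tested, 10.0% did not overlap. The median log2 fold change of all genes tested was 0.00. With knockout replicate 3 left out the count was 335, with knockout replicate 2 left out 358, and over nuclei of low doublet score 337. A low score is one at or under the median of all cluster 1 nuclei. The median score was 0.0620 in wildtype replicate 1, 0.0628 in knockout replicate 1 and 0.133 to 0.171 in the other samples. The cut thus removed unequal shares of the samples and lowered the counts. Why a call was lost under it was not tested. A second limit is the cluster number itself: the authors assigned it from expression, so a change within cells and a change in which cells carry the number cannot be told apart. For this reason the sums over clusters 1 and 2 together, chosen after the data were seen, are given beside the results. There, 915 of 12678 genes (7.22%) were called.

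The upper-layer genes were lower and the deep-layer genes higher in knockout cluster 1. Of 13 upper-layer genes tested, 7 fell and 0 rose, with a median log2 fold change of -0.51. Of 14 deep-layer genes, 6 rose and 0 fell, with a median of 0.31. Against the 2.3% and 2.54% of all genes called lower and higher, these shares are large. An earlier reading of these data was known when both lists were drawn up, so they are not independent evidence of direction. The whole upper-layer list summed to between 15373 and 17064 CPM in the wildtype samples and between 11181 and 13831 CPM in the knockout samples. Robo2, whose own change did not pass the test, holds a large part of this upper-layer sum. The deep-layer list summed to between 2781 and 3298 CPM in wildtype and between 4147 and 5568 CPM in knockout. Sox5 alone stood at 1366 ± 168 CPM in wildtype and 3011 ± 482 CPM in knockout, so it holds a large part of the rise of this sum.

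Cux1 (chr5:136276989-136596344 in the deposited gene table, whose build is not named) stood at 602, 624, 672 and 748 CPM in wildtype replicates 1 to 4 and at 297, 424, 363 and 425 CPM in knockout replicates 1 to 4. All knockout samples were below all wildtype samples, with knockout replicate 1 the lowest. It fell by 0.81 ± 0.10 on the log2 scale (SE; adjusted p = 0.00031). Cux2 (chr5:121994429-122188165) stood at 688, 741, 706 and 889 CPM in wildtype and at 401, 574, 436 and 489 CPM in knockout, again with no overlap. It fell by 0.67 ± 0.11 (adjusted p = 0.00177).

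Among the POU factors, Pou3f2 stood at 169, 146, 140 and 185 CPM in wildtype and at 85.5, 78.2, 80.4 and 138 CPM in knockout. Knockout replicate 4 lay just under the lowest wildtype sample and the other knockout samples well below. Pou3f2 fell by 0.75 ± 0.15 (adjusted p = 0.0101, and 0.0541 without knockout replicate 3). Pou3f1 fell by 0.49 ± 0.11, from 93.0 ± 8.55 to 66.9 ± 12.4 CPM (adjusted p = 0.0217). Its call was lost in 6 of 17 alternatives, among them without wildtype replicate 3 or 4 and without knockout replicate 2 or 3, with an adjusted p of up to 0.169. Transcripts of Pou3f1 share 331 bases with Gm2164 on the opposite strand, and the strand used in counting is not given in the sources used here, so reads of the pair may be mixed.

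Mef2c, a factor of neuronal maturation, fell by 0.67 ± 0.15 (adjusted p = 0.021), but its genotypes overlapped: wildtype replicate 2 stood at 304 CPM and knockout replicate 4 at 341 CPM. Its call was lost in 9 of 17 alternatives, among them without each sample in turn except wildtype replicate 2 and knockout replicate 4. Nectin3, an adhesion molecule of upper-layer neurons, fell by 0.51 ± 0.11 (adjusted p = 0.0168), and its call was lost without wildtype replicate 4 or knockout replicate 2. The fourth marker of the cluster, Robo2, stood at 4948, 5343, 5644 and 5571 CPM in wildtype and at 4239, 5021, 4399 and 5044 CPM in knockout. These ranges overlapped, and the log2 difference of -0.20 ± 0.07 did not pass the test (adjusted p = 0.151). Dok5, Rorb, Unc5d, Lmo4 and Lhx2 did not pass it either, with log2 differences from -0.62 (Dok5, adjusted p = 0.0522) to 0.18 (Lhx2).

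**Figure D2:**
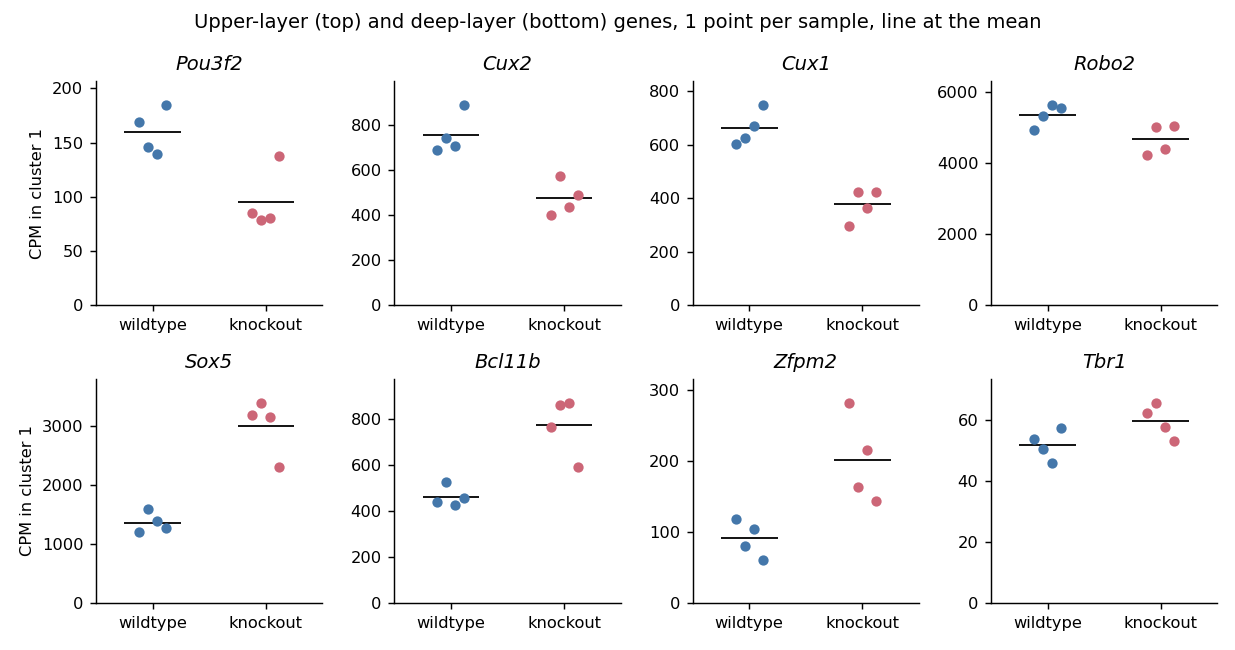
Each point is the CPM of a gene (y axis) in cluster 1 of 1 sample, by genotype (x axis), with a line at the mean of 4 samples. Pou3f2, Cux2 and Cux1 are lower and Sox5, Bcl11b and Zfpm2 higher in all knockout samples, while the genotypes overlap for Robo2 and Tbr1.

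Of the deep-layer genes, Sox5 (chr6:143774151-144727703), a SOX factor that sets the order in which deep-layer neuron types are made, rose in every knockout sample. It stood at 1207, 1593, 1386 and 1278 CPM in wildtype and at 3187, 3400, 3151 and 2307 CPM in knockout. Every knockout sample lay far above every wildtype sample, with knockout replicate 4 nearest. Sox5 rose by 1.14 ± 0.11 on the log2 scale (adjusted p = 3.16e-05), the call holding in all 17 alternatives. Bcl11b (chr12:107876662-107969861), which directs neurons towards subcerebral targets, stood at 437, 525, 425 and 457 CPM in wildtype and at 766, 862, 869 and 591 CPM in knockout. Knockout replicate 4 was again the lowest of its group, still above all wildtype samples. Bcl11b rose by 0.74 ± 0.11 (adjusted p = 0.000848).

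Zfpm2, a cofactor of GATA proteins found in corticothalamic neurons, stood at 118, 80.9, 104 and 60.1 CPM in wildtype and at 282, 163, 215 and 143 CPM in knockout. The spread within each genotype was wide, but the groups did not overlap, and Zfpm2 rose by 1.15 ± 0.21 (adjusted p = 0.00464). Foxp2, a forkhead factor of corticothalamic neurons, rose by 0.79 ± 0.08, from 90.5 ± 8.40 to 156 ± 9.21 CPM (adjusted p = 2.69e-05). Fezf2, the selector of subcerebral neurons, rose by 0.65 ± 0.11, from 47.7 ± 8.41 to 74.9 ± 7.37 CPM (adjusted p = 0.00345). Lix1 rose by 0.46 ± 0.06 (adjusted p = 0.000303). Tbr1, the factor of early-born layer 6 neurons, stood at 51.9 ± 4.93 and 59.7 ± 5.53 CPM and did not pass the test (adjusted p = 0.272), nor did Tle4 (adjusted p = 0.105) or Hs3st4 (adjusted p = 0.0782).

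In clusters 1 and 2 together, 9 of 13 upper-layer genes fell and 1 rose, and 7 of 14 deep-layer genes rose and 0 fell, where 3.92% of all genes tested fell and 3.3% rose. Cux1 fell there by 0.89 ± 0.13, and Sox5 rose by 0.74 ± 0.09 and Bcl11b by 0.63 ± 0.09. By contrast, Foxp2 changed by 0.12 ± 0.11 (adjusted p = 0.607) and Fezf2 by 0.43 ± 0.12 (adjusted p = 0.0637), so their calls held in cluster 1 but not in the sum. The call of Fezf2 was also lost over nuclei of low doublet score.

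**Figure D3:**
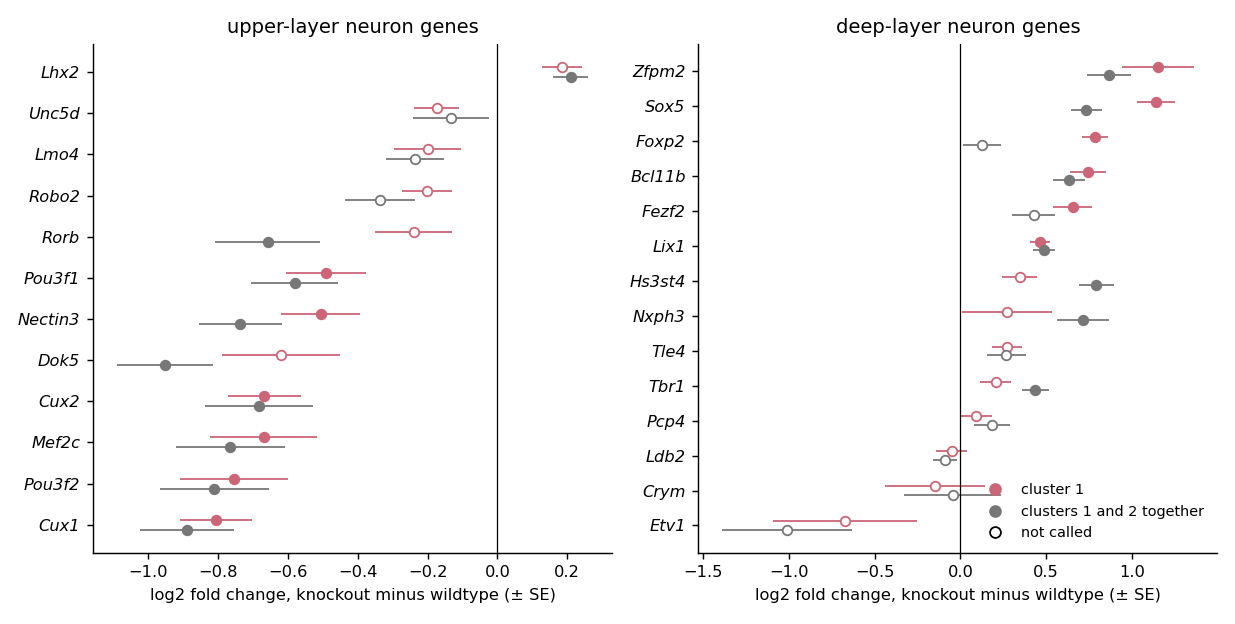
Points give the log2 fold change, knockout minus wildtype (x axis, bars ± SE), of upper-layer (left) and deep-layer genes (right) in cluster 1 (red) and in clusters 1 and 2 together (grey), with open points for genes that did not pass the test. Cux1 is lowest on the left, and Foxp2 is filled in cluster 1 and open near 0 in the sum.

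A sum over nuclei does not show whether many nuclei moved a little or few moved far, so nuclei were thinned at random to 1400 UMIs each; none was shallower. The median nucleus then held 22 to 25 UMIs of the upper-layer list in wildtype samples and 14 to 19 in knockout samples. For the deep-layer list it held 4 UMIs in each wildtype sample and 5 to 7 in knockout samples. The share of nuclei with a Sox5 UMI was 75.1% to 82.1% in wildtype and 90.2% to 95.5% in knockout (87.1% to 92.1% and 95.8% to 98.8% without thinning). In cluster 4, the cluster of cycling nuclei, it was 48.1% to 52.5% and 49.3% to 63.0% after thinning. The share with a Cux2 UMI was 51.5% to 60.2% in wildtype and 34.1% to 44.9% in knockout (62.9% to 72.8% and 47.6% to 60.04% without thinning), against 17.8% to 21.9% and 18.2% to 21.4% in cluster 4 after thinning. Nuclei with both a Cux2 and a Sox5 UMI made up 39.0% to 46.8% in wildtype and 31.5% to 42.2% in knockout, so these ranges overlapped. Nuclei with more deep-layer than upper-layer UMIs made up 4.25% to 6.90% of cluster 1 in wildtype and 10.9% to 25.8% in knockout, with knockout replicate 4 the lowest of its group. These shares are given without a test, as they are built from the list members. Sox5 holds a large part of the deep-layer UMIs and of their rise, and Robo2 a large part of the upper-layer UMIs.

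Promoter windows of members that moved in opposite directions are shown for context: Cux2, a marker that fell, and Sox5, which rose. Each sequence is a RefSeq window on GRCm38.p6 of 250 bases before and 50 after a transcript start, at chr5:122049802-122050101 (minus strand) for Cux2 and chr6:143947057-143947356 (minus strand) for Sox5. Capitals mark an E-box, CANNTG, the motif of basic helix-loop-helix factors such as the Neurod and Neurog families, which reads the same on both strands.
Cux2: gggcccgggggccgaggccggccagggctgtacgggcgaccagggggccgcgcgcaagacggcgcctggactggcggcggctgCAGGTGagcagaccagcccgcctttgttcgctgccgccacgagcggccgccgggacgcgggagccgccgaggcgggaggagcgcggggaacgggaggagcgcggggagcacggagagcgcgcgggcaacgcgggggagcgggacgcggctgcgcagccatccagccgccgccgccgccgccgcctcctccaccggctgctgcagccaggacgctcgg
Sox5: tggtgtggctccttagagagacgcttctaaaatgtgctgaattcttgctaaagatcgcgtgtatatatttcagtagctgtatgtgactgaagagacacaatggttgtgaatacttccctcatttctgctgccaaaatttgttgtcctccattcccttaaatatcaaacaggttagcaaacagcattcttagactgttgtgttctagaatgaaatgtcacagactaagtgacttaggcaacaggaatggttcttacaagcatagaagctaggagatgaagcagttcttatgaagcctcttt
The table held 12 windows for 9 of the 13 called upper-layer and deep-layer genes, among them another for Cux2 with 2 E-boxes, not shown. Whether the windows shown hold the main start of their gene in these nuclei was not tested. An E-box occurred in 5 of the 12, against 72.3% of all 32851 windows of the same length. The POU octamer ATGCAAAT, searched on both strands and not overlapping the E-box, occurred in 0 of the 12, against 1.74% of all windows. These matches describe letters in the windows and not binding.

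The nuclear factor I family holds transcription factors of neuronal and glial maturation. One of them was the most abundant of the called genes without overlap that rose by at least 0.5 on the log2 scale. Nfib stood at 3843, 4268, 4295 and 3949 CPM in wildtype and at 5646, 6249, 6191 and 5171 CPM in knockout, and rose by 0.51 ± 0.07 (adjusted p = 0.00068). Nfia (chr4:97660971-98007111) stood at 1446, 1671, 1652 and 1400 CPM and at 2783, 3147, 3104 and 2523 CPM and rose by 0.91 ± 0.08 (adjusted p = 1.64e-05). Neither gene's genotypes overlapped, and both calls held in all 17 alternatives. Nfix (0.20 ± 0.10) and Nfic (-0.33 ± 0.13) did not pass the test, so 2 of 4 members rose and 0 fell.

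Axon guidance genes moved in both directions. The counts of called list members that follow stand beside 2.54% of all genes tested called higher and 2.3% lower, so in a list of 20 genes 1 call is near that background. Among 8 netrin receptor genes, Unc5c, a receptor for repulsion by netrin, stood at 113, 69.9, 139 and 107 CPM in wildtype and at 30.1, 34.7, 28.2 and 56.4 CPM in knockout. No knockout sample reached the wildtype range, and Unc5c fell by 1.52 ± 0.21 (adjusted p = 0.000704). Dcc, the attractive netrin receptor, rose by 0.36 ± 0.08, from 3710 ± 417 to 4770 ± 267 CPM (adjusted p = 0.0143), and its call was lost over nuclei of low doublet score and without wildtype replicate 2 or knockout replicate 3. Of 5 Slit and Robo genes, 1 rose: Slit3, a secreted ligand of Robo receptors, at 70.7, 119, 106 and 63.5 CPM in wildtype and 316, 191, 217 and 145 CPM in knockout. Knockout replicate 1 stood far above the rest, and Slit3 rose by 1.25 ± 0.22 (adjusted p = 0.00373). Over all nuclei it changed by 0.0015 (adjusted p = 0.998).

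Of 20 semaphorin and plexin genes, 3 rose and 2 fell. The secreted Sema3a, a repellent for cortical axons, fell by 0.55 ± 0.09 (140 ± 13.9 to 96.4 ± 12.5 CPM, adjusted p = 0.00333), and Sema3c fell by 0.54 ± 0.11 (106 ± 7.88 to 74.1 ± 13.8 CPM, adjusted p = 0.0113, lost without knockout replicate 3). The membrane-bound Sema6d rose by 0.63 ± 0.10 (397 ± 44.6 to 613 ± 88.2 CPM, adjusted p = 0.00201), but in clusters 1 and 2 together the adjusted p was 0.0684. The other two that rose, Plxna2 and Sema4d, kept the call in 6 and 10 of 17 alternatives, and both lost it without any one of wildtype replicates 1 and 2 and knockout replicates 2, 3 and 4. Of 16 ephrin and Eph genes, 2 fell. The receptor Epha6 fell by 1.62 ± 0.28 (59.4 ± 16.3 to 21.1 ± 12.7 CPM, adjusted p = 0.00336), and the ligand Efnb3 by 0.47 ± 0.11, a call lost over nuclei of low doublet score and without knockout replicate 2 or 4.

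Cell adhesion genes likewise split. Of 19 cadherin genes, 4 rose and 2 fell. Cdh13 (T-cadherin) stood at 667, 803, 820 and 693 CPM in wildtype and at 1449, 1566, 1467 and 1175 CPM in knockout, and rose by 0.92 ± 0.09 (adjusted p = 3.23e-05). Cdh11 rose by 0.87 ± 0.13, and Cdh12 fell by 0.85 ± 0.11, from 576 ± 60.2 to 319 ± 53.4 CPM. Pcdh7 rose by 0.28 ± 0.06 in cluster 1 but fell by 0.70 in clusters 1 and 2 together, the only one of the 564 genes called in the opposite direction there. Its call was lost with 1 sample left out (wildtype replicate 4, knockout replicates 2 and 3). Pcdh17, which also rose, kept its call in 8 of 17 alternatives, and Cdh18, which fell, lost it over nuclei of low doublet score and without wildtype replicate 4 or knockout replicate 2. Of 17 contactin, teneurin and latrophilin genes, Cntn2, Tenm1 and Tenm4 rose and Adgrl3 fell. The call of Tenm4 was lost with 1 sample left out (wildtype replicates 1, 2 and 4, knockout replicates 2 and 3), and that of Adgrl3 likewise (wildtype replicate 4, knockout replicate 3).

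Of 18 migration genes, 1 was called, a share near the 4.84% of all genes: Rnd2, a small GTPase that controls radial migration, rose by 0.93 ± 0.10, from 58.9 ± 5.46 to 112 ± 16.2 CPM (adjusted p = 0.000102). Of 16 maturation genes, 3 rose and 1 fell. Neurod6, a helix-loop-helix factor of excitatory neurons, stood at 390, 387, 383 and 387 CPM in wildtype and at 535, 516, 503 and 538 CPM in knockout. The samples of each genotype hardly varied, and Neurod6 rose by 0.43 ± 0.05 (adjusted p = 0.000141). Slc17a6, the vesicular glutamate transporter VGLUT2, fell by 0.42 ± 0.08 (173 ± 16.0 to 130 ± 10.0 CPM). Slc17a7, the transporter VGLUT1 of mature cortical neurons, rose by 0.64 ± 0.16 (10.6 ± 1.72 to 16.1 ± 2.90 CPM), and its call was lost in 7 of 17 alternatives. That of Snap25, a synaptic vesicle fusion gene that rose, was lost in 12 of 17.

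Of 32 glutamate and GABA receptor genes, 2 rose and 5 fell, with a median of -0.21. Gabrg3, a GABA-A receptor subunit, fell by 1.20 ± 0.23 (49.2 ± 10.4 to 22.2 ± 9.30 CPM, adjusted p = 0.00571), and Grm5, a metabotropic glutamate receptor, by 0.87 ± 0.16 (52.8 ± 11.6 to 29.5 ± 5.42 CPM, adjusted p = 0.00508). The call of Gabrg3 was lost over nuclei of low doublet score. Of the AMPA receptor genes, Gria3 rose by 0.49 ± 0.08 and Gria2 fell by 0.26 ± 0.06, while Gria1 (-0.20 ± 0.07) and Gria4 (-0.46 ± 0.15) did not pass the test. Both calls were lost over nuclei of low doublet score, and that of Gria2 also with 1 sample left out (wildtype replicates 1 and 4, knockout replicate 3). Grin1, an NMDA receptor subunit that also fell, kept the call in 10 of 17 alternatives. Grik2, a kainate receptor gene, rose by 0.47 ± 0.09 in cluster 1 and changed by -0.10 in clusters 1 and 2 together (adjusted p = 0.627). Of 32 voltage-gated channel genes, 3 rose and 1 fell. Scn2a, the main axonal sodium channel of young neurons, fell by 0.63 ± 0.11 (56.8 ± 3.14 to 37.1 ± 6.05 CPM), a call lost over nuclei of low doublet score, as were those of Cacna1e and Kcnd3, which rose. Kcnq5, an M-current potassium channel, rose by 0.73 ± 0.09 in cluster 1 and changed by -0.46 in the sum over clusters 1 and 2 (adjusted p = 0.0644).

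Of 9 neuronal long noncoding RNAs, 2 fell. Pantr1 (chr1:42629942-42734002), another noncoding RNA gene, stood at 934, 874, 814 and 1034 CPM in wildtype and at 467, 437, 436 and 593 CPM in knockout. It fell in every knockout sample to well under the wildtype range, by 0.92 ± 0.10 (adjusted p = 7.68e-05). Snhg11 fell by 2.26 ± 0.36, from 15.9 ± 6.57 to 3.64 ± 1.73 CPM (adjusted p = 0.00197). Of 16 area patterning genes, Emx1 rose by 0.41 ± 0.10, a call lost with 1 sample left out (wildtype replicates 1 and 4, knockout replicates 2, 3 and 4; adjusted p up to 0.106), and Etv5, an ETS factor downstream of FGF signalling, fell by 2.03 ± 0.32. Etv5 stood at 22.4, 25.5, 10.3 and 30.4 CPM in wildtype and at 5.57, 5.50, 2.96 and 8.57 CPM in knockout (adjusted p = 0.00187).

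Several lists hardly moved. No gene of the 14 cell cycle genes, 11 Notch pathway genes or 90 nuclear oxidative phosphorylation genes passed the test, and 1 of 74 ribosomal protein genes did (Rpl36, in 6 of 17 alternatives). The share of cluster 1 nuclei at a cycling angle was 7.78% to 10.4% in wildtype and 7.98% to 14.1% in knockout, a difference of 2.28 percentage points (exact two-sided permutation test, p = 0.257, where 0.0286 is the smallest p that 4 against 4 samples allow). With every angle outside the G1/G0 range counted, the difference was 3.48 percentage points (24.6% to 33.4% in knockout). Of 11 apical progenitor genes Nes rose, a call lost in 6 of 17 alternatives, and of 8 intermediate progenitor genes Mfap4.

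**Figure D4:**
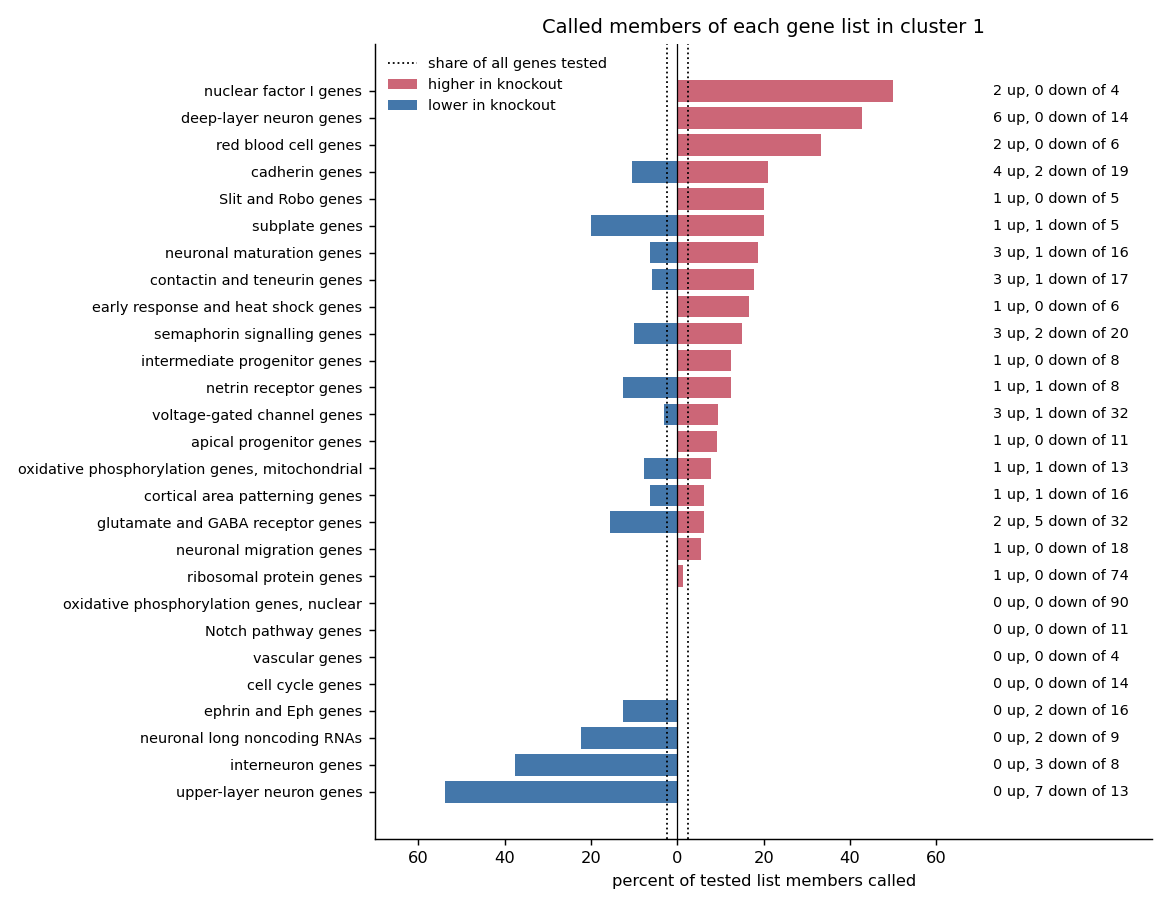
Bars give the percent of tested members of each gene list with at least 4 tested members (y axis) that were called higher (red, to the right) or lower (blue, to the left) in knockout cluster 1, with the counts at the right and dotted lines at the shares of all genes tested (2.54% higher, 2.3% lower). The upper-layer list extends furthest to the left, at 7 of 13, and the nuclear factor I and deep-layer lists furthest to the right.

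Markers of other cell types were present. Of 11 interneuron genes in the table, 8 were tested and 3 fell: Gad2, which makes GABA, by 1.32 ± 0.24, Dlx2 by 1.82 ± 0.29 (lost over nuclei of low doublet score) and Dlx5 by 1.43 ± 0.27. The 11 genes summed to 56.8 to 105 CPM in wildtype and 34.3 to 51.0 CPM in knockout samples, and none was at 0. Of 3 tested striatal genes, 2 fell: Isl1 by 3.14 ± 0.52, from 5.26 ± 2.62 to 0.683 ± 0.553 CPM, and Ebf1 by 1.31 ± 0.17. After thinning, 1.63% to 2.94% of wildtype nuclei of cluster 1 and 0.686% to 1.05% of knockout nuclei held a Gad2 UMI. In each of the 8 samples this share was below that of cluster 4 (2.41% to 6.18% and 0.839% to 3.41%). For Dlx2 the thinned share was 0.686% to 1.60% in wildtype and 0% to 0.666% in knockout cluster 1, and 0.762% to 1.81% and 0.186% to 0.747% in cluster 4. For Isl1 it was 0.394% to 1.23% and 0.0361% to 0.0998% in cluster 1, and 0.127% to 1.63% and 0% to 0.330% in cluster 4, so the ranges of both clusters overlapped. The change of Gad2 in cluster 1 differed from that in the other nuclei by -0.06 ± 0.19 (adjusted p = 0.959), and that of Isl1 by -0.39 ± 0.49 (adjusted p = 0.85). Among the 8 tested interneuron genes, 1 passed this test, with the more positive change in cluster 1. Among the 3 tested striatal genes, 1 passed it, with the more negative change. The 6 red blood cell genes summed to 362 to 667 CPM in wildtype and 245 to 553 CPM in knockout, more than the marker Pou3f1 alone. The adult globins Hbb-bs, Hbb-bt, Hba-a1 and Hba-a2 had log2 differences from -0.43 to -0.21 that did not pass the test. The embryonic globins Hbb-y and Hba-x rose, Hbb-y at 2.34 to 7.77 CPM in wildtype and at 15.6, 108, 24.4 and 13.0 CPM in knockout (adjusted p = 0.021), and its call was lost without wildtype replicate 1, 3 or 4. That of Hba-x was lost in 5 of 16 alternatives, 4 of them with 1 sample left out (wildtype replicates 3 and 4, knockout replicates 2 and 3). The 5 choroid plexus genes, none of which had enough counts to be tested, summed to 2.75, 1.18, 123.3 and 38.8 CPM in wildtype replicates 1 to 4 and 0.255 to 2.24 CPM in knockout, so wildtype replicates 3 and 4 stood apart, nearly all of it from Ttr. The 4 oligodendrocyte lineage genes, also untested, summed to 3.49 to 4.40 CPM in wildtype and 0.773 to 1.93 CPM in knockout, with no overlap. The part of such RNA in the results above was not tested.

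By size of change, the most extreme genes were mostly poorly studied transcripts at low counts. The largest rise was that of Gm28438, from 2 UMIs over all wildtype samples to 5357 over the knockout samples, a ratio of 2506 after scaling to the library totals (95% exact interval 693 to 20698). The second largest fall was that of mt-Nd3, a mitochondrial subunit of complex I, from 190 ± 109 CPM to 2.41 ± 1.99 CPM (log2 fold change -6.06 ± 0.55). These transcripts are near-identical copies: 345 aligned bases differ at 1, the substitution T3C, counted from the 5′ end of mt-Nd3 in GENCODE M21. The first 33 bases of each are shown because this base, in capitals, is the only one by which a read within the aligned part can be assigned.
mt-Nd3: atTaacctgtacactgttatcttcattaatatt
Gm28438: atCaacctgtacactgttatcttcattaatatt
The changes of both were about as large in the other nuclei, with differences of 0.02 ± 0.25 for mt-Nd3 and -0.53 ± 1.19 for Gm28438. The UMIs of mt-Nd3 in cluster 1 went from 3883 to 56, while those of Gm28438 went from 2 to 5357. Whether these are changes in level or in the assignment of reads between the copies was not tested.

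The other genes with the largest rise were C1ql4, Dnajc22, Tpm3-rs7, Qrfpr, Gm9347, 4930480G23Rik, Gm42743, Gm50166 and Gm5089. C1ql4, a secreted C1q-like synaptic protein, had 0 UMIs in wildtype cluster 1 and 140 in knockout, at least 43.7-fold higher against a floor of 3 UMIs over the group. Dnajc22, a cochaperone gene next to C1ql4 on chromosome 15, had 7 and 820 UMIs and rose by 6.71 ± 0.23. Tpm3-rs7 is a copy of Tpm3 with 99.1% identity over 2108 bases, and its value may hold reads of Tpm3. Gm9347 aligns with Phgdh at 97.4% identity over 1608 bases, and Gm50166 with Unc119b at 95.3% over 1377 bases. The genes with the largest fall, besides mt-Nd3, Isl1, Snhg11 and Etv5, were Gm13307, Gm17167, Zcchc12, Fxyd7, 9630014M24Rik and Mcmdc2. Gm13307 had 178 UMIs in wildtype and 0 in knockout, at least 63.4-fold lower, and shares sequence with Gm17167, which fell by 2.80 ± 0.14. The difference from the change in the other nuclei was 0.71 ± 0.52 for Dnajc22 and -0.35 ± 0.52 for Tpm3-rs7. For Gm17167 it was -0.18 ± 0.15 and for Mcmdc2 0.28 ± 0.25. Of the genes with the largest rise or fall, only Qrfpr, Gm5089, Etv5, Fxyd7 and 9630014M24Rik passed the test of this difference.

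The genes of the highest level were ranked among called genes without overlap that changed by at least 0.5 on the log2 scale. Besides Nfib, Nfia, Sox5, Cdh13 and Bcl11b, those that rose were the phospholipase gene Plcb1, the giant cadherin Fat3 and B3galt1. The noncoding Gm3764 and the phosphatase gene Ppm1l rose as well. Gm3764, with the smallest spread of these in wildtype, stood at 601 ± 15.1 CPM in wildtype and 1149 ± 60.9 in knockout (log2 fold change 0.93 ± 0.06, adjusted p = 1.82e-07). Its change differed from that in the other nuclei by -0.16 ± 0.07 (interaction test, adjusted p = 0.439). Those that fell were, besides Cux2, Cux1 and Pantr1, the leading gene of the cluster Frmd4a, the adhesion molecules Lsamp and Cadm2, the ubiquitin ligase gene Sh3rf3, the growth factor gene Ptn and the adaptor gene Dok6. Frmd4a fell by 0.57 ± 0.11, from 4726 ± 554 to 3189 ± 558 CPM (adjusted p = 0.00722). Lsamp fell by 0.75 ± 0.13, from 3921 ± 632 to 2335 ± 458 CPM.

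Whether a change differed between cluster 1 and the remaining nuclei of the same samples was tested by the interaction of cluster and genotype. It was called for 270 of 13659 genes (1.98%), 164 with the more positive change in cluster 1 (1.2%) and 106 with the more negative (0.776%). With 1 sample left out, the count was 114 (wildtype replicate 4), 133 (knockout replicate 2), 144 (knockout replicate 3) or 486 (knockout replicate 4), and for the other samples it stayed within 1.5 times 270. The test was passed by Sox5, whose change was 0.77 ± 0.12 more positive in cluster 1 (adjusted p = 0.0015), and by Foxp2 (0.82 ± 0.11), Nfia (0.27 ± 0.05), Cdh13 (0.65 ± 0.11) and Slit3 (1.31 ± 0.18). Cux1 (-0.74 ± 0.14, adjusted p = 0.00781), Cux2 (-0.33 ± 0.07) and Pantr1 (-0.90 ± 0.12) changed more negatively in cluster 1 than in the other nuclei as a whole. Against cluster 2 alone this did not hold: the log2 fold change there was -0.96 for Cux2 and -0.80 for Pantr1 (differences 0.29 and -0.10, adjusted p = 0.408 and 0.783), and 1.14 for Nfia against 0.91 in cluster 1 (adjusted p = 0.0902). Against cluster 5 alone, Cdh13 and Cux2 did not pass the interaction test (differences 0.12 and -0.21, adjusted p = 0.965 and 0.268). Sox5, Nfia, Cux1 and Pantr1 did pass it there. For Nfib (0.09 ± 0.05) and Neurod6 (0.05 ± 0.08) the test of the difference from the other nuclei as a whole was not passed.

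By the size of this difference, the leading positive genes were Gm5089, Qrfpr, Dpp10, Spink13 and Lrrk2, and the leading negative ones included Etv5, Fxyd7, Alk and 9630014M24Rik. Dpp10, an auxiliary subunit of A-type potassium channels, rose by 1.56 ± 0.27 in cluster 1 (12.6 ± 2.68 to 35.1 ± 14.3 CPM), while its values were -0.70 in cluster 2 and -0.90 in cluster 3. Lrrk2, a kinase, rose by 1.87 ± 0.32 in cluster 1 at a low level (0.990 ± 0.394 to 3.56 ± 0.680 CPM). Etv5 fell in cluster 1 by 1.69 ± 0.22 more than in the other nuclei. Alk, a receptor tyrosine kinase, fell by 1.34 ± 0.25 in cluster 1 (20.4 ± 7.47 to 8.11 ± 1.03 CPM).

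**Figure D5:**
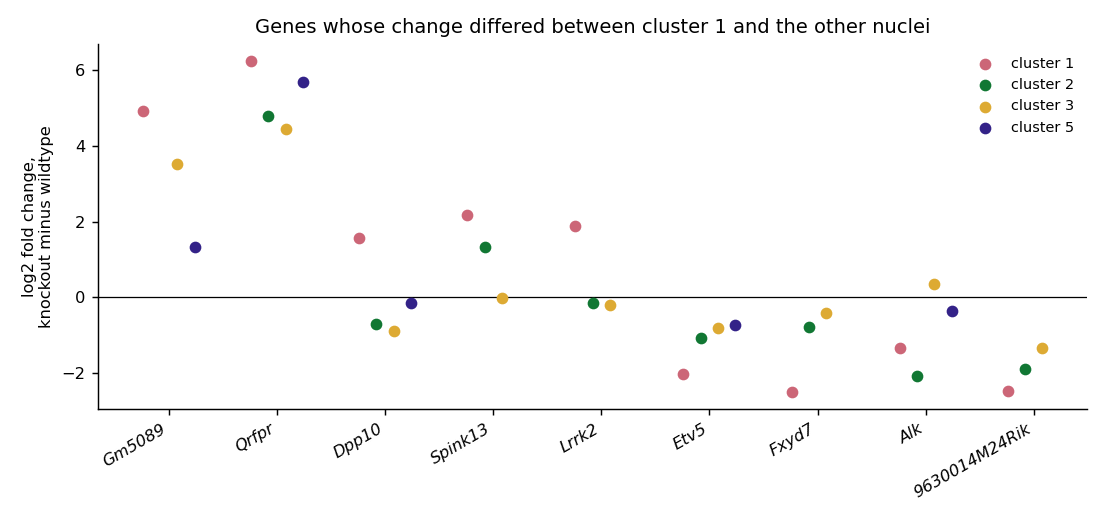
Points give the log2 fold change, knockout minus wildtype (y axis), of 9 genes with large interactions (x axis) in clusters 1, 2, 3 and 5, where the gene was tested. Dpp10 and Lrrk2 lie above 0 only in cluster 1.

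Against single clusters, the interaction was called for 422 of 12068 genes (3.5%) with cluster 2, 398 of 12362 (3.22%) with cluster 3 and 119 of 11343 (1.05%) with cluster 5. With 1 sample left out, the count with cluster 3 was as low as 223 (wildtype replicate 4) and 258 (knockout replicate 2), and that with cluster 5 as low as 49, 55 and 74 (wildtype replicates 4 and 1, knockout replicate 2). The log2 fold change of Cux1 was -1.65 in cluster 2 against -0.81 in cluster 1 (difference 0.85, adjusted p = 0.021). Kcnq5 and Grik2, whose calls were lost in the sum over clusters 1 and 2, differed from cluster 2 by 1.54 and 1.33. In cluster 5, Cux1 changed by -0.30, which differed from cluster 1 (adjusted p = 0.00132). Sox5 rose more in cluster 1 than in cluster 2 (by 0.52), cluster 3 (0.94) and cluster 5 (0.62), and each of these differences passed the test.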

How the data were processed

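The authors deposited whole-number UMI counts per gene and nucleus, not normalized, for 14166 genes, and, for each nucleus, its cluster, an angle in the cell cycle and scores for doublets, per the file headers. The deposited doublet scores are scores without a fixed unit and the angle is in radians. Kallisto, bustools and the build mm10 are named in the submitters' processing notes. Further settings are not given in the sources used here. Only 352 of the 14162 gene IDs shared with GENCODE M21 (GRCm38) have the same start and end in the deposited gene table, so its positions were not mixed with that build. The files list 1 library date for all samples.

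UMIs of cluster 1 were summed per sample and tested with edgeR 4.0.16 (R 4.3.3): TMM, filterByExpr, glmQLFit and glmQLFTest, genotype as the only term, Benjamini-Hochberg adjustment over all genes tested, threshold 0.05. CPM of single genes in the genotype comparison use TMM factors. CPM in the description of clusters and in list sums do not. Interactions with the other nuclei, or with clusters 2, 3 and 5, the most like clusters, kept the sample as a term. On simulated counts with 200 genes changed by 1 on the log2 scale, 87.0% were recovered in cluster 1 (11664 genes) and 78.5% in the interaction (11663 genes).

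Called genes whose genotypes did not overlap and whose mean was 10 UMIs or more per sample were ranked by fold change (10 named in each direction) and, above 0.5 on the log2 scale, by level (10 in each direction). The interaction named 5 in each direction, and the identity 15 genes of at least 50 CPM. Members of the gene lists may be named beside. Some genes that these rules pick are not reported here, though list counts and sums include them. The members and lists were chosen with earlier results of these data known. Copies (95% identity over at least 100 bases) were searched with blastn 2.17.0 for 101 genes, of which 27 had one in the table, Cux1, Cdh11, Gad2, Lix1, Dpp10, Rnd2, Scn2a, Tenm1, Tenm4, Pcdh7 and Plcb1 among them, and 16 overlap a gene on the opposite strand, Nfia among them. Their values may hold reads of the other gene. UMI counts limit precision, and intervals cover counting error only. All deposited nuclei were kept, and no doublet caller was run. Same-numbered samples deviated from their group means with correlations of 0.203, 0.0921, 0.0925 and 0.0179, not all above 0.1, so the numbers were not taken as pairs.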

Additional observations from a re-analysis of the deposited data

Results flagged for a closer look

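Of 80 sets of 4 samples checked (the named genes in each genotype), 4 had a sample far from the other 3 of its genotype, where chance gives about 1 in 20. Gm9347 stood at 0.173 CPM in wildtype replicate 4, above the others of its genotype, as did Gm5089 at 0.447 CPM in wildtype replicate 3. Both values rest on very few UMIs (1 and 2 over all wildtype samples). Cadm2 stood at 2326 CPM in wildtype replicate 2, below the other wildtype samples. Dok6 stood at 478 CPM in knockout replicate 4, above the other knockout samples.

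The change between genotypes differed between cluster 1 and the other nuclei, by the interaction test in edgeR, for 9 genes named above. The difference on the log2 scale, cluster 1 minus other nuclei, was 4.37 ± 0.66 for Gm5089, 3.29 ± 0.59 for Qrfpr, 2.48 ± 0.33 for Dpp10, 1.92 ± 0.42 for Spink13 and 1.90 ± 0.33 for Lrrk2. It was -1.69 ± 0.22 for Etv5, -1.52 ± 0.33 for Fxyd7, -1.46 ± 0.18 for Alk and -1.46 ± 0.33 for 9630014M24Rik. The calls of Gm5089, Dpp10, Lrrk2, Etv5 and Alk held in all 11 alternatives. Those of Spink13, Fxyd7 and 9630014M24Rik were lost without knockout replicate 2 or 3, among others, and that of Qrfpr without wildtype replicate 4. Against cluster 2 alone, the differences of Gm5089, Qrfpr, Spink13, Alk and 9630014M24Rik did not pass the test. Against cluster 3 alone, those of Gm5089, Qrfpr and 9630014M24Rik did not. With cluster 5, the test was not passed by Qrfpr, Lrrk2, Fxyd7 and 9630014M24Rik, and Spink13 was not tested. Only Dpp10 and Etv5 passed it against each of clusters 2, 3 and 5.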

How the results depend on the processing

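The 564 calls of cluster 1 became 337 over nuclei of low doublet score and 335 to 647 with 1 sample left out. In clusters 1 and 2 together they became 915, and in clusters 1, 2 and 3 together 910. Other scaling, DESeq2, no filter, Xist as a covariate and all nuclei stayed within 1.5 times. Xist (log2, centred on its mean) stood at -1.34 in wildtype replicate 4 and knockout replicates 1 and 4, and at 0.69 to 0.91 in the other samples. Under this covariate the calls of Plxna2, Rpl36 and Snap25 were lost. With the replicate block there were 800 calls, and 449 in place of 270 for the interaction, whose range with 1 sample left out was 114 to 486; not every sample correlated best with its own number. The interactions with clusters 2, 3 and 5 ranged over 290 to 452, 223 to 438 and 49 to 122 with 1 sample left out. Of the 15 leading genes, 5 stayed under the ratio to the median of the other clusters. In clusters 1 and 2 together, 463 of the 564 were called in the same direction. Of 96 genes followed, 36 kept the call under every alternative that gave a value, 60 lost it at least once and 9 reversed, all under the wider sums, listed here in the order clusters 1 and 2, clusters 1 to 3, all nuclei: Pcdh7 -0.70, -0.56, -0.33; Kcnq5 -0.46, -0.29, -0.21; Grik2 -0.10, -0.025; and from clusters 1 to 3 on Pcdh17 -0.063, -0.10, Snap25 -0.00862, -0.072 and Foxp2 -0.24. Over all nuclei Sema6d gave -0.070, Kcnd3 -0.021 and Slc17a6 0.023. There the calls of Cux1, Cux2, Bcl11b, Pantr1 and Slit3 were lost too, and that of Cux2 also in clusters 1, 2 and 3 together. The cause was not tested. Shares of nuclei in cluster 1 were not compared between genotypes, as 3 of its 10 leading genes were called.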

Other observations

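Called genes of cluster 1, 4.84% over all, were spread unevenly over the chromosomes. The shares were highest on chromosome 3 (62 of 572 tested genes, 10.8%) and the mitochondrial chromosome (2 of 19, 10.5%). Chromosome 14 (38 of 404, 9.41%) and chromosome 1 (50 of 689, 7.26%) came next. The 2 mitochondrial genes are mt-Nd6 and mt-Nd3, and the assignment of reads between mt-Nd3 and its copy Gm28438 was not tested. On chromosome 3, Qrfpr lies at 36233573-36276462 in the deposited gene table. On chromosome 15, C1ql4 lies at 98981967-98985698 and Dnajc22 at 98991051-99002618. These chromosomes were singled out after their values were seen, and no test was run. Mitochondrial mt-Nd6 rose by 0.48 ± 0.07 in cluster 1, from 324 ± 33.0 to 453 ± 27.0 CPM (edgeR, adjusted p = 0.00129). Of 5 subplate genes tested, Nxph4 rose by 0.58 ± 0.14, a call lost in 6 of 17 alternatives, and Cdh18 fell by 0.82 ± 0.19.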
